A study of Mus musculus with 20 samples.

Results

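The antioxidant response that the transcription factor NRF2 controls was followed through 10 genes in kidneys of mice that lost *Pkd2* as adults. The 10 genes, of 24411 in the count table, were chosen by symbol: *Nfe2l2*, *Keap1*, *Nqo1*, *Gclc*, *Gclm*, *Txnrd1*, *Srxn1*, *Slc7a11*, *Gpx3* and *Gsr*. Earlier results of these data were known when they were chosen. Each of 20 mice gave 1 library of whole kidney at P125, and the groups were controls and mutants of either sex, 5 mice each. Mutants carried *Pkd2* fl/fl together with the *Pax8* rtTA and *TetO* Cre transgenes, in which doxycycline (DOX) turns on Cre recombinase through the *Pax8* promoter, so deletion targets the epithelium of all tubule segments and the other cells of the kidney keep *Pkd2*. Controls were littermates without the full pair of *Pax8* rtTA and *TetO* Cre, and both genotypes received DOX at 50 mg/kg from P27 to P29. The mice came from 3 litters, A, B and C. Mice are named by sex, genotype and number (MC, male control; MM, male mutant; FC, female control; FM, female mutant), and the numbers pair no mice.

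NRF2, the product of *Nfe2l2*, is normally held in the cytoplasm by KEAP1 and degraded. Oxidants and electrophiles modify KEAP1, NRF2 then accumulates, enters the nucleus and binds with a small MAF protein to antioxidant response elements. Its targets make glutathione, reduce it again after use, drive the thioredoxin system and detoxify quinones. Since NRF2 is regulated mainly as a protein, its mRNA need not follow its activity, and the mRNA of its targets is the usual readout. In the kidney, the proximal tubule carries most of the oxidative metabolism and is the main source of the secreted peroxidase GPX3.

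Total counts ranged from 11307741 to 19324073 per mouse. The 10 genes took 1.19% to 2.14% of all counts, and *Gpx3* alone 1.07% to 2.00%. Levels are given as CPM, counts scaled to the TMM-normalised library size. The library of female mutant FM4 stood apart: it detected 14850 genes against 16776 to 17724 in the other 19 and 76 genes held a single count there, where the others had 708 to 859 such genes. *Pkd2*, the deleted gene, was lower in mutants than in controls of both sexes without overlap, at 291 ± 31.1 CPM (SD, n = 5) in male controls and 119 ± 9.87 in male mutants, and at 257 ± 49.1 in female controls and 145 ± 33.6 in female mutants. Marker sums differed between genotypes for several cell types, while those of the proximal tubule and collecting duct overlapped in both sexes. Overlapping sums do not show that these 2 were unchanged. Over both sexes, 1 of 8 proximal tubule and 2 of 6 collecting duct markers were lower in mutants at an adjusted p under 0.01 (edgeR). Of all genes 5.86% were. The median log2 fold change was -0.23 for proximal tubule markers, against -0.012 for all genes. The summed level of 8 proximal tubule markers was 12194 to 12742 CPM in male controls, 7773 to 12262 in male mutants, 10656 to 11827 in female controls and 6643 to 12275 in female mutants, and none of these genes was at 0 in any mouse. The summed level of 9 macrophage markers was 128 to 159, 238 to 691, 162 to 205 and 181 to 954 CPM in the same order. Markers of the loop of Henle and distal tubule summed to 6696 to 7169 CPM in male controls against 4511 to 5306 in male mutants, and to 9187 to 10273 in female controls against 4919 to 6845 in female mutants, without overlap. Injury markers had 823 to 1040 against 1815 to 9434 CPM in males and 1898 to 2318 against 2721 to 10236 in females, also without overlap. Collecting duct markers had 410 to 647 against 445 to 489 CPM in males and 614 to 908 against 499 to 863 in females. Fibroblast markers had 233 to 302 against 407 to 1178 CPM in males and overlapping sums of 330.1 to 497 against 484 to 1570 in females. The part of these shifts in the results below was not tested, and in bulk kidney fewer cells of a type cannot be told apart from less RNA per cell.

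Compared per kilobase of merged exons, so that genes can be set against each other, *Gpx3* stood far above the rest at 8827 ± 1514 CPM per kb (SD, n = 20). *Gclc* followed at 95.01 ± 24.9 and *Gsr* at 78.0 ± 11.6, then *Nqo1* at 45.1 ± 13.6 and *Gclm* at 40.3 ± 9.79. *Nfe2l2* (33.6 ± 4.60), *Txnrd1* (30.4 ± 3.98) and *Srxn1* (28.9 ± 2.94) lay close together. *Keap1* had 11.99 ± 0.924 CPM per kb and *Slc7a11* 0.0258 ± 0.0242. The ranges of neighbours in this order overlapped except at the top, where *Gpx3* was above all others in each mouse, and at the bottom, where no *Keap1* value reached the lowest *Srxn1* value and no *Slc7a11* value came near *Keap1*.

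Upstream sequences are shown for *Gclm*, *Nqo1* and *Txnrd1*, the members called between the sexes in controls, because NRF2 acts through a short element in the DNA. The table of RefSeq promoters for GRCm38.p6 held 8 of the 10 genes, all but *Gclc* and *Gsr*. The 250 bases before the transcription start were searched on both strands for the core of the antioxidant response element, TGACNNNGC, where N is any base. This core lies in 10.2% of all 32851 upstream windows. It was found upstream of 3 of the 8 genes, *Nfe2l2*, *Gclm* and 1 of the 3 *Txnrd1* starts. The 8 genes had 10 windows, and the share of 10.2% counts windows and not genes. In *Gclm* (chr3:122245307-122245556, + strand) it begins at base -134 from the start and reads on the other strand, and in *Txnrd1* (chr10:82858956-82859205, + strand) it begins at base -92, also on the other strand, before a start that lies inside the annotated gene. The window of *Nqo1* (chr8:107403206-107403455, - strand) holds no match to these letters. The stretches read 5′ to 3′ along each gene, with the matched core in capitals.
Gclm: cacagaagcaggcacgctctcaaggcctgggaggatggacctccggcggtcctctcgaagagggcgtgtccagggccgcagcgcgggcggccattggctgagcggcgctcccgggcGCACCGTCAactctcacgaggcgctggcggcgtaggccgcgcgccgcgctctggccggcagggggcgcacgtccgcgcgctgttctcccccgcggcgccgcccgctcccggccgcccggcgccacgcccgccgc
Txnrd1: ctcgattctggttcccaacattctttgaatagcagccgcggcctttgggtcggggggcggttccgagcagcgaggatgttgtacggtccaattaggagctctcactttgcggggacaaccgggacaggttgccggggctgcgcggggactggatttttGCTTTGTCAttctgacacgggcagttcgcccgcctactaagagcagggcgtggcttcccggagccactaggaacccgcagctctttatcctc
Nqo1: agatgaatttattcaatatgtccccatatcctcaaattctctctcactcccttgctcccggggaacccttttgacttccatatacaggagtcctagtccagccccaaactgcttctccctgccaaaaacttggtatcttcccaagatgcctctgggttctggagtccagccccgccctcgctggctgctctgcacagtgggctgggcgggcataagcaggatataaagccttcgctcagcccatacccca

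Were the genes of this response changed in cystic kidneys? *Gclm*, the regulatory subunit of glutamate-cysteine ligase, was the only member called as a DEG (adjusted p under 0.01) between mutants and controls by edgeR, and it was lower in mutants, while DESeq2's Wald test also called *Gclc*, *Nqo1* and *Gpx3* in at least 1 of the comparisons. It lies on chromosome 3 of GRCm38 from 122245557 to 122270732. *Gclm* was at 351, 328, 375, 319 and 334 CPM in male controls MC1 to MC5 and at 251, 282, 243, 236 and 273 CPM in male mutants MM1 to MM5. In female controls FC1 to FC5 it was at 242, 236, 219, 213 and 233 CPM, and in female mutants FM1 to FM5 at 191, 206, 136, 195 and 201 CPM. Every mutant lay below every control of its sex. The log2 fold change was -0.39 in males (SE 0.063, adjusted p = 0.00238), -0.28 in females (SE 0.11, adjusted p = 0.180) and -0.34 over both sexes (SE 0.067, adjusted p = 0.00109; edgeR quasi-likelihood test, Benjamini-Hochberg adjustment over all genes tested, here and below). *Gclm* was lower in mutants in 6 of 6 combinations of sex and litter, by 0.22 to 0.41 on the log2 scale. Males of litter C and females of litters A and C had only 1 mutant and 1 control each. The share of all genes with such a count is not given, here and below. Without FM4 the change over both sexes was -0.36 (adjusted p = 0.00058), and without MC4 the males had -0.37 with an adjusted p of 0.0224, which no longer passed.

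**Figure D1:**
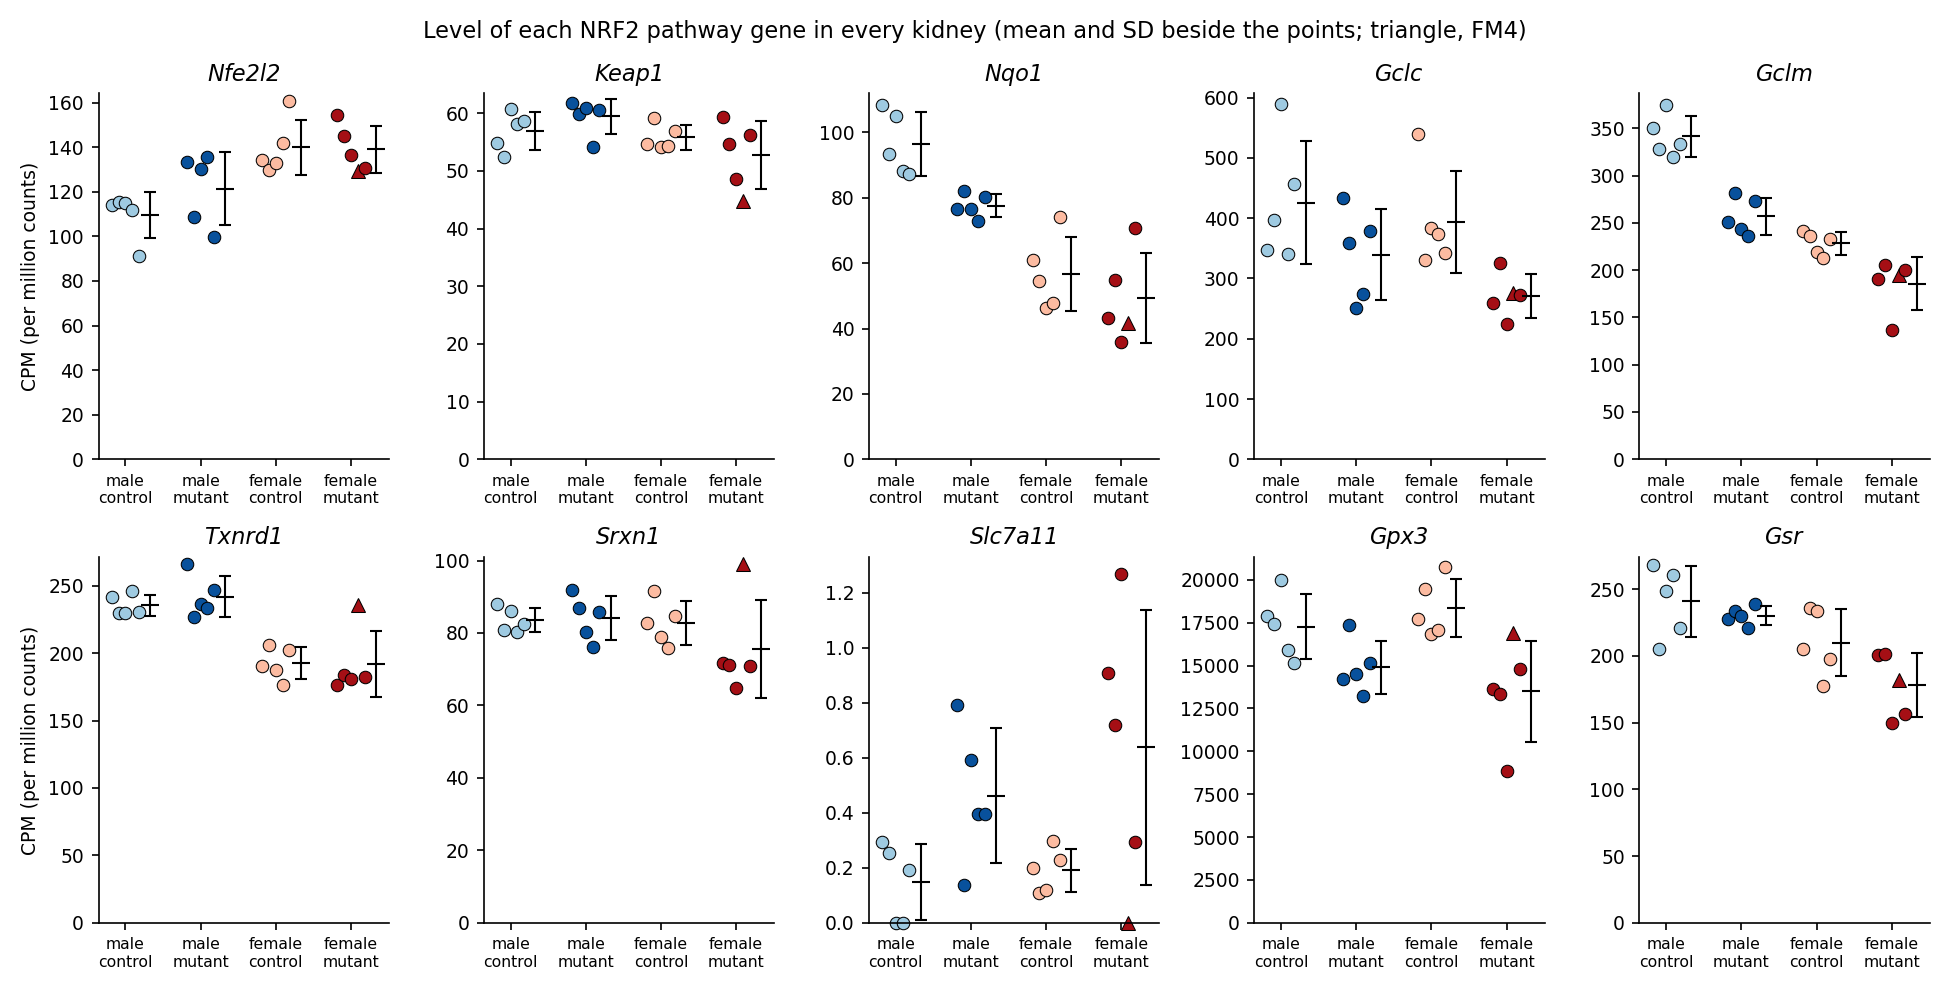
Level of the 10 genes in each of the 20 kidneys, in CPM on linear axes from 0, with 1 point per mouse, the group mean and its SD beside the points, and a triangle for FM4. *Gclm* lay lower in mutants than in controls of both sexes, *Gclm*, *Nqo1* and *Txnrd1* lay higher in male than in female controls, and *Txnrd1* and *Srxn1* were highest among female mutants in FM4.

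*Gclc* encodes the catalytic subunit of the same enzyme, which makes the first and rate-limiting step of glutathione synthesis. It lies on chromosome 9 from 77754535 to 77794485. Its levels were 347, 397, 589, 340.3 and 458 CPM in male controls, in mouse order, and 434, 359, 252, 275 and 379 CPM in male mutants. Female controls had 541, 331, 383, 375 and 342 CPM, and female mutants had 259, 325, 224, 276 and 273 CPM. The male groups overlapped, whereas every female mutant was below every female control, the highest mutant at 325 and the lowest control at 331. The log2 fold change was -0.25 in males (SE 0.13, adjusted p = 0.198), -0.50 in females (SE 0.14, adjusted p = 0.0636) and -0.38 over both sexes (SE 0.10, adjusted p = 0.0116), and none of these passed. With DESeq2's Wald test, *Gclc* passed in females (adjusted p = 0.00878) and over both sexes (adjusted p = 0.00186). It was lower in mutants in 6 of 6 combinations of sex and litter, by 0.13 to 1.06 on the log2 scale.

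*Slc7a11*, the cystine importer that supplies cysteine for glutathione, was almost silent in these kidneys. It had 4, 4, 0, 0 and 3 counts in male controls, 14, 2, 9, 6 and 7 in male mutants, 3, 2, 2, 5 and 3 in female controls and 18, 12, 25, 0 and 5 in female mutants. The sums were 11 and 38 counts in males and 15 and 60 in females. In raw counts 4 of 5 male mutants and 3 of 5 female mutants exceeded every control of their sex, and the groups overlapped through MM2, FM5 and FM4, which had none. Its mean level within a litter was higher in mutants in 6 of 6 combinations of sex and litter. It lies on chromosome 3 from 49892526 to 50443614. The filter on low counts removed *Slc7a11* from every comparison when all mice were included, so 9 of the 10 members were tested. Without the filter its log2 fold change over both sexes was 1.69 (SE 0.55, adjusted p = 0.0341 over all genes), which did not pass. The males alone gave 1.63 (adjusted p = 0.169), the females alone 1.71 (adjusted p = 0.292).

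*Gpx3* and *Gsr* use and regenerate glutathione. *Gpx3*, the secreted glutathione peroxidase, lies on chromosome 11 from 54902453 to 54910377. It was at 17890, 17441, 19970, 15902 and 15123 CPM in male controls and at 14205, 17362, 14504, 13222 and 15154 CPM in male mutants. Female controls had 17708, 19446, 16831, 17069 and 20736 CPM, and female mutants had 13655, 13331, 8836, 16882 and 14801 CPM. The groups overlapped in both sexes, in females through FM4, whose level lay just above the lowest control. Its log2 fold change was -0.18 in males (SE 0.10, adjusted p = 0.251), -0.42 in females (SE 0.20, adjusted p = 0.256) and -0.31 over both sexes (SE 0.11, adjusted p = 0.0559). Without FM4 these were -0.54 in females (adjusted p = 0.0637) and -0.36 over both sexes (adjusted p = 0.0206), and DESeq2's Wald test called the gene over both sexes (adjusted p = 0.00475). The lowest *Gpx3* value, in FM3, came with the lowest proximal tubule marker sum of any mouse, 6643 CPM. MC5, with the highest such sum, 12742 CPM, had the lowest *Gpx3* value of any control. A relation between the 2 was not tested. *Gsr*, glutathione reductase, on chromosome 8 from 33652523 to 33698163, had 205 to 268 CPM in male controls, 221 to 239 in male mutants, 178 to 236 in female controls and 149.8 to 201 in female mutants. Its log2 fold change over both sexes was -0.15 (SE 0.075, adjusted p = 0.146).

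*Nqo1*, the quinone reductase that is a standard marker of NRF2 activity, lies on chromosome 8 from 107388225 to 107403206. It was at 108, 93.2, 105, 88.2 and 87.3 CPM in male controls and 76.5, 82.0, 76.6, 72.9 and 80.2 CPM in male mutants, with every mutant below every control. Female controls had 60.9, 54.6, 46.2, 47.8 and 74.0 CPM and female mutants had 43.2, 54.9, 35.9, 41.8 and 70.7 CPM, and these overlapped. The log2 fold change was -0.29 in males (SE 0.068, adjusted p = 0.0131), -0.19 in females (SE 0.12, adjusted p = 0.439) and -0.24 over both sexes (SE 0.072, adjusted p = 0.0181). None of these passed. In the same mice *Nqo1* was lower in mutants in 6 of 6 combinations of sex and litter, by 0.067 to 0.50 on the log2 scale. DESeq2's Wald test called it in males (adjusted p = 0.0034) and over both sexes (adjusted p = 0.00556).

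The sensor pair and the thioredoxin genes were not called between genotypes. *Nfe2l2* was at 114, 115, 115, 112 and 91.0 CPM in male controls, 134, 109, 130.1, 135 and 99.6 in male mutants, 134, 130.0, 133, 142 and 161 in female controls and 154, 145, 136, 129 and 131 in female mutants. Mutants and controls overlapped in both sexes, and the log2 fold change over both sexes was 0.066 with a 95% interval from -0.054 to 0.19. For *Keap1*, on chromosome 9 from 21229730 to 21239361, it was -0.0084 with an interval from -0.13 to 0.11, on levels of 44.9 to 61.8 CPM across all mice. *Txnrd1*, cytosolic thioredoxin reductase, had 0.021 with an interval from -0.10 to 0.15. *Srxn1*, sulfiredoxin, which repairs overoxidised peroxiredoxins and lies on chromosome 2 from 152105516 to 152111376, had -0.047 with an interval from -0.19 to 0.10. In female mutants both lay highest in FM4, with *Txnrd1* at 235 CPM against 176 to 184 in the other 4 mice and *Srxn1* at 99.1 CPM against 64.9 to 71.6. Without FM4, *Srxn1* in females had a log2 fold change of -0.23 (adjusted p = 0.120) in place of -0.11 (adjusted p = 0.668).

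**Figure D2:**
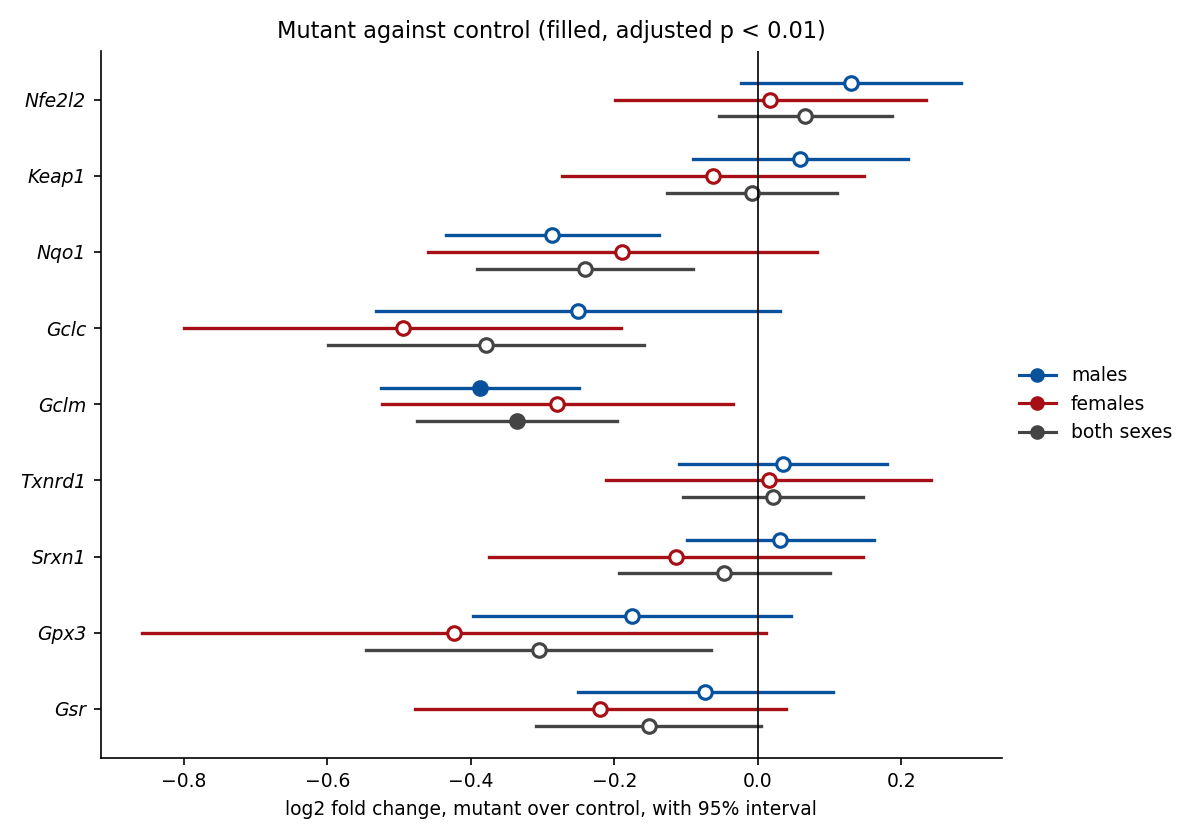
Log2 fold change of mutants over controls for the 9 genes tested, in males, females and both sexes together, with 95% intervals, filled where the adjusted p was under 0.01. *Gclm* was filled in males and over both sexes, and *Gclm*, *Gclc*, *Nqo1*, *Gpx3* and *Gsr* lay on the lower side in all 3 comparisons. The intervals of *Gclm* stayed below 0 in all 3. So did those of *Gclc* in females and over both sexes, *Nqo1* in males and over both sexes, and *Gpx3* over both sexes. All other intervals crossed 0.

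Counted together, 1 of the 9 members tested was called in males, where 8.46% of all genes were called. In females 0 of 9 were called by edgeR, against 0.637% of all genes, with 2 members (*Gclc* and *Gclm*) at an unadjusted p under 0.05, where 20.6% of all genes were, and 1 call (*Gclc*) by DESeq2's Wald test, which called 928 of 14439 genes. Without FM4, edgeR still called 0 of 9 in females while its calls over all genes went from 92 to 866. Over both sexes 1 of 9 was called, against 15.9% of all genes. The median log2 fold change of the 9 members was -0.073 in males, -0.19 in females and -0.15 over both sexes, and the median of all genes tested was -0.0020, -0.0029 and -0.012. Groups did not overlap for 2 of 9 members in males (*Nqo1* and *Gclm*), against 15.3% of all genes, and for 2 of 9 in females (*Gclc* and *Gclm*), against 7.06% of all genes. None of these members lay higher in mutants. By edgeR the shares of calls lay near or below those of all genes in males and over both sexes. DESeq2's Wald test called 2 of 9 members in males, against 2001 of 14010 genes. Over both sexes it called 4 of 9, against 2973 of 14191 genes. Both of these shares lay above those of all genes, on 9 members and with no test of the difference. Whether genotype acted differently in the sexes was tested by the sex-by-genotype term. It called 0 of 9 members and 0.00% of the 14820 genes by edgeR, with 0 members and 618 genes at an unadjusted p under 0.05, while DESeq2's Wald test called 18 genes and no member. The term for *Gclc* was 0.27 with a 95% interval from -0.16 to 0.71, and for *Gclm* -0.080 with an interval from -0.37 to 0.21. Without FM4, *Srxn1* had a term of 0.29 (unadjusted p = 0.00787, adjusted p = 0.508).

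The sexes were compared within each genotype. In controls, *Nqo1*, *Gclm* and *Txnrd1* were higher in males, and every male control lay above every female control for each of them. The log2 fold change of males over females was 0.70 for *Nqo1* (SE 0.10, adjusted p = 0.000312), 0.57 for *Gclm* (SE 0.067, adjusted p = 6.16e-05) and 0.34 for *Txnrd1* (SE 0.069, adjusted p = 0.00287). *Txnrd1* was at 242, 229.6, 229.7, 246 and 231 CPM in male controls and at 190.2, 206, 187, 177 and 202 CPM in female controls. It lies on chromosome 10 from 82833951 to 82897712. *Nfe2l2*, on chromosome 2 from 75675513 to 75704641, went the other way. Its level was 109 ± 10.4 CPM (SD, n = 5) in male controls and 139.9 ± 12.4 in female controls, and the groups did not overlap. Its log2 fold change of -0.35 (SE 0.091, adjusted p = 0.0125) did not pass, while DESeq2's Wald test called it (adjusted p = 0.00461). The catalytic subunit *Gclc* had a difference of 0.00065 with a 95% interval from -0.34 to 0.34, beside the higher regulatory subunit *Gclm*. *Gpx3* had -0.11 with an interval from -0.35 to 0.12, *Srxn1* 0.035 with an interval from -0.13 to 0.20, and *Gsr* 0.27 (adjusted p = 0.0703).

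In all, 3 of 9 members were called between control sexes, where 17.8% of all genes were, and 4 of 9 did not overlap, where 23.9% of all genes did not. Both shares lay above those of all genes, on 9 members and with no test of the difference. The members were chosen with earlier results of these data known, so the shares cannot be separated from that choice. Litter by litter, from A to C, male controls exceeded female controls by 0.54, 0.52 and 0.52 on the log2 scale for *Gclm*, and by 0.74, 0.84 and 0.24 for *Nqo1*. For *Txnrd1* these differences were 0.30, 0.38 and 0.19, and for *Nfe2l2* males were lower in each litter, by 0.23, 0.27 and 0.82. These differences rest on 1 mouse of a sex in each litter, and of both sexes in litter C. Without MC4, the male control of litter B, *Gclm* was the only member still called, with *Nqo1* at 0.58 (adjusted p = 0.0108) and *Txnrd1* at 0.30 (adjusted p = 0.0507). *Txnrd1* also missed the threshold without FC1, at 0.35 (adjusted p = 0.0162), and with all 20 mice in 1 fit, at 0.30 (adjusted p = 0.0159). *Nfe2l2* was at -0.21 without MC5 or without FC5, the pair of litter C.

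In mutants, *Nqo1* was higher in male than in female mutants by 0.68 on the log2 scale (SE 0.14, adjusted p = 0.00893). *Gclm* had 0.46 (SE 0.12, adjusted p = 0.0286), *Gsr* 0.37 (SE 0.11, adjusted p = 0.0379) and *Txnrd1* 0.36 (SE 0.11, adjusted p = 0.0622), and none of these 3 passed, while DESeq2's Wald test called *Gclm* and *Gsr* as well as *Nqo1*. The call of *Nqo1* was lost in 9 of 10 fits that left out 1 mouse, all but that without FM2, with differences of 0.59 to 0.81 and adjusted p of 0.00942 to 0.0666. It was also lost with no litter term, at 0.67 (adjusted p = 0.0119). Without FM4 *Nqo1* was at 0.66 (adjusted p = 0.0112), while *Txnrd1* passed, at 0.44 (adjusted p = 0.00674). Hence 1 of 9 members was called, where 5.42% of all genes were, and 3 of 9 (*Nqo1*, *Gclm* and *Gsr*) did not overlap, with males above, where 13.3% of all genes did not. *Nfe2l2* was -0.19 (SE 0.096, adjusted p = 0.207) and *Gpx3* 0.13 (SE 0.21, adjusted p = 0.727). The comparison of sexes in controls and that of genotypes share the control mice, and no relation between them is drawn.

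**Figure D3:**
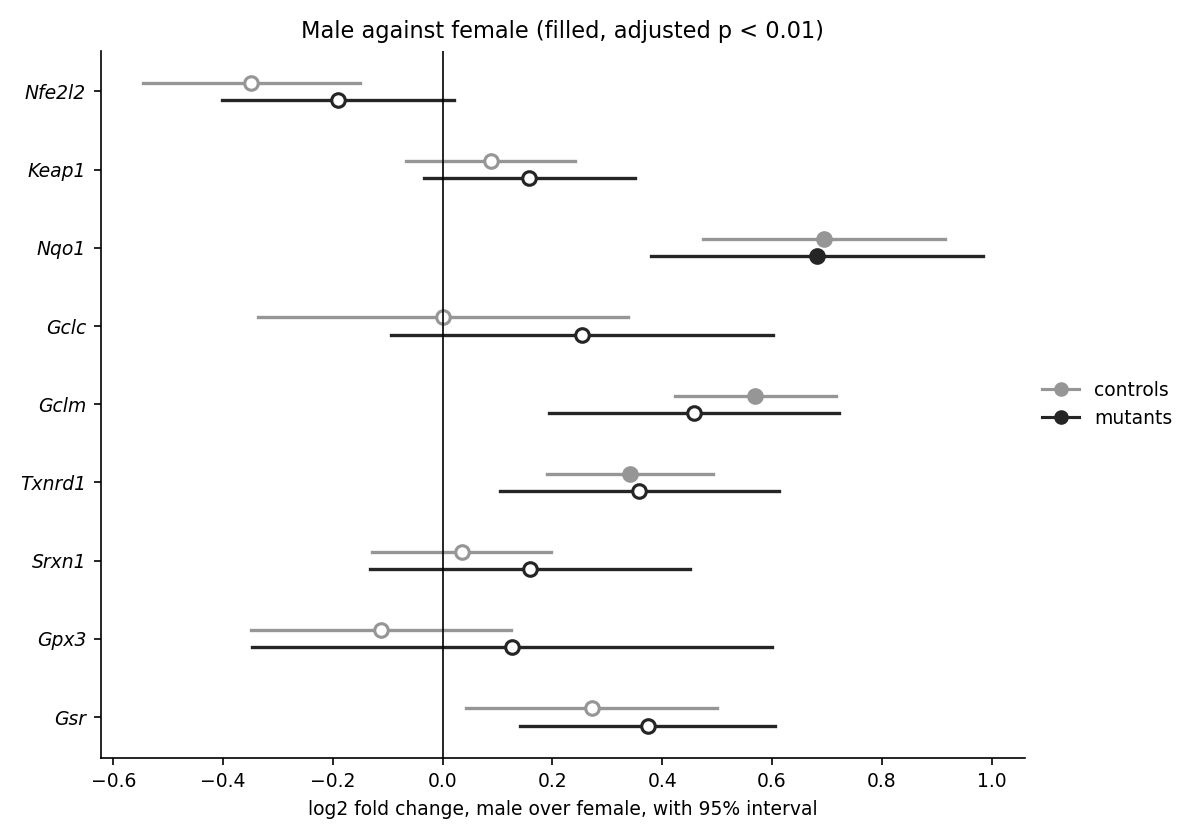
Log2 fold change of males over females for the 9 genes tested, in controls and in mutants, with 95% intervals, filled where the adjusted p was under 0.01. *Nqo1* was filled in both genotypes, *Gclm* and *Txnrd1* in controls alone, and *Nfe2l2* was the only gene on the lower side in both.

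Did the levels follow disease severity? Kidney weight as a percentage of body weight (KBW), with the weight taken to be that of 1 kidney, was 1.22% to 2.15% in male mutants and 0.836% to 1.46% in female mutants, against 0.599% to 0.896% in male controls and 0.555% to 0.672% in female controls. Since male mutants had both larger kidneys and higher *Nqo1* and *Gclm*, sex entered the fit of level on KBW over the 10 mutants. No member was called, by edgeR or by DESeq2's Wald test. edgeR called 0.00% of the 14416 genes tested, with 3212 genes and 0 members at an unadjusted p under 0.05, and DESeq2's Wald test called 577 genes. *Gpx3* had the steepest slope of the 9, -0.57 on the log2 scale per percentage point of KBW (95% interval -1.20 to 0.056, adjusted p = 0.265). It was -0.45 without FM4, -0.82 without MM1 and -0.35 without FM3, and -0.16 with no sex term. *Gclm* had -0.31 (interval -0.73 to 0.11), *Nqo1* -0.32 (interval -0.91 to 0.28) and *Nfe2l2* 0.25 (interval -0.13 to 0.63). When each mouse was left out, the slope of *Gclm* ran from -0.44 to -0.12 and that of *Nqo1* from -0.51 to -0.12, both nearest 0 without FM3, and *Nqo1* was also at -0.13 without FM5. With no sex term the slopes changed sign, to 0.28 for *Gclm*, 0.45 for *Nqo1* and -0.037 for *Nfe2l2*.

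Correlations over the same 10 mutants gave a like picture. With the sexes pooled, Pearson's r with KBW ranged from -0.22 for *Gpx3* (permutation p = 0.533, adjusted p = 0.795; Spearman's rho = -0.36, permutation p = 0.309, adjusted p = 0.683) to 0.62 for *Keap1* (permutation p = 0.0556, adjusted p = 0.346; rho = 0.65, permutation p = 0.0496, adjusted p = 0.395). Without MM1 and FM4, the mice with KBW farthest from the median, r was -0.13 for *Gpx3* and 0.22 for *Keap1*. Leaving them out also narrows the range of KBW, so the lower r cannot show whether the value for *Keap1* rested on these mice. For values centred within sex, *Gpx3* had r = -0.64 (exact permutation test over 14400 arrangements within sex, two-sided p = 0.0220, adjusted p = 0.155), and the other 8 tested members had p of at least 0.142. An unadjusted p under 0.05 was reached by 23.3% of 14820 genes. Of the 9 members, r changed sign for *Nfe2l2*, *Nqo1*, *Gclm*, *Txnrd1*, *Srxn1* and *Gsr* between the pooled and the sex-centred values.

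Within the mutants of each sex *Slc7a11* counts rose with KBW, a relation tested after the data were seen. It did not pass the adjustment over all genes. In order of rising KBW, from FM4 and FM5 to FM2, FM1 and FM3, female mutants had 0, 5, 12, 18 and 25 counts. Male mutants in order of rising KBW, from MM2 and MM4 to MM5, MM3 and MM1, had 2, 6, 7, 9 and 14. Total counts differed between these libraries, and in CPM the order of MM4 (0.396 CPM) and MM5 (0.395 CPM) was level. Centred within sex, r with KBW was 0.87 (exact permutation test, p = 0.000139, adjusted p = 0.127 over 19355 genes with no filter on low counts), and 19.8% of these genes had p under 0.05. With the sexes pooled r was 0.60 (permutation p = 0.0647, adjusted p = 0.425; rho = 0.54, permutation p = 0.113, adjusted p = 0.587), and 0.28 without MM1 and FM4. The count of 0 was in FM4, the library with few genes of low count, and without it the sex-centred r was 0.93 (n = 9, exact permutation test, p = 0.000694). The macrophage marker sum had the same order in female mutants, at 181, 278, 521, 775 and 954 CPM, and nearly so in males, at 238, 398, 250, 428 and 691 CPM. Other marker sums also moved with KBW. From FM4 to FM3 the fibroblast sum was 484, 536, 939, 938 and 1570 CPM and the injury sum 3086, 2721, 7919, 10236 and 8954. The proximal tubule sum fell from 12275 in FM4 to 6643 in FM3. Among male mutants MM1 had the highest fibroblast and injury sums, 1178 and 9434 CPM, and the lowest proximal tubule sum, 7773. The part of these cells in the *Slc7a11* counts was not tested.

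**Figure D4:**
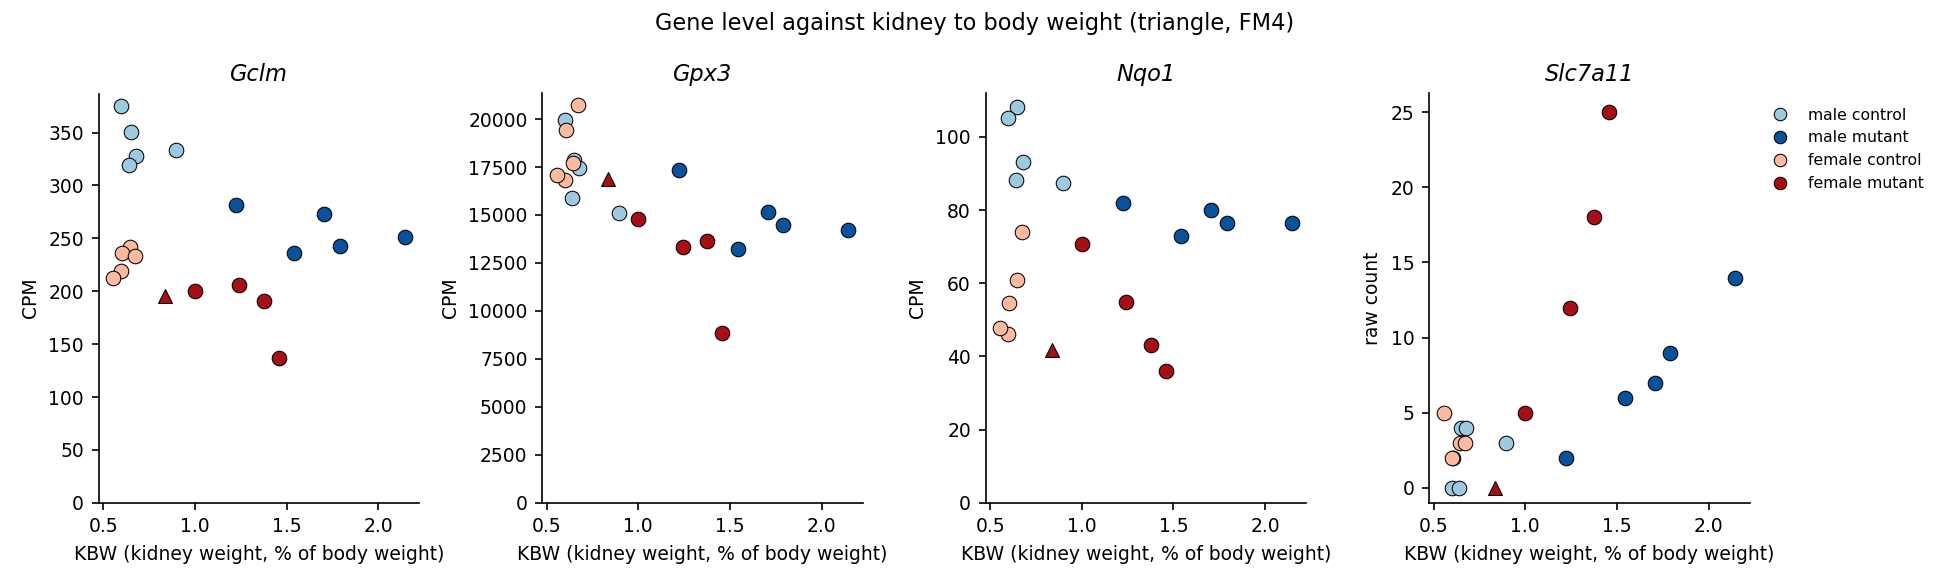
Level of *Gclm*, *Gpx3* and *Nqo1* in CPM, and raw counts of *Slc7a11*, against KBW for 20 mice, coloured by group, with a triangle for FM4. Within mutants of each sex *Slc7a11* counts ran with KBW from 0 to 25 in females and from 2 to 14 in males, while the levels of *Gclm* and *Nqo1* separated by sex.

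Over the 20 mice, with each group's mean removed, the 36 pairs of the 9 tested members had a median correlation of 0.231, and 7 pairs exceeded 0.5. Without FM4 the median was 0.316 and 10 pairs exceeded 0.5. The highest were *Txnrd1* with *Srxn1* at 0.86, which was 0.63 without FM4, and *Gclm* with *Gpx3* at 0.86, which was 0.90 without FM4. Pairs with *Keap1* shifted with that library, with -0.18 and 0.65 for its pair with *Srxn1* before and after FM4 was left out, and 0.16 and 0.63 for that with *Gpx3*. *Nfe2l2* with *Keap1* had 0.058. These values describe mice that share litters and libraries. Across all 20 mice, the genes with the pattern most like a member's, by Pearson's r of log2 CPM, were *Rars2* (0.97), *Akr1c21* (0.97) and *Fam188a* (0.97) for *Gclm*, *Fbxo36* (0.96), *Grina* (0.95) and *Dus1l* (0.95) for *Nqo1*, and *Prdx3* (0.95), *Tmem70* (0.93) and *Narfl* (0.93) for *Gpx3*. For *Nfe2l2* they were *Eif4e3* (0.94), *Crip2* (0.93) and *Tinagl1* (0.90), and for *Txnrd1* *Depdc1b* (0.92), *Man1a* (0.91) and *Tmem144* (0.91). *Gclc* was closest to *Ces2b* (0.85), *Rhov* (0.84) and *Tgm1* (0.81), *Gsr* to *Snx4* (0.87), *Ormdl1* (0.84) and *Tspyl1* (0.84), *Keap1* to *Fkbpl*, *Gtf2b* and *Actl6a* (each 0.88) and *Srxn1* to *Tmbim6* (0.83), *Sars2* (0.82) and *Chmp7* (0.82). No other member was among them.

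Of 89 further genes of the pathway in 7 lists, 82 were tested over both sexes, 9 rose and 6 fell in mutants, and their median log2 fold change was -0.081 against -0.012 for all genes. Of all genes, 10.0% rose and 5.86% fell, so the pathway's counts lay near the background. In males 6 of 82 rose and 6 fell, where 5.25% of all genes rose and 3.20% fell. In females 0 of 82 were called, where 0.637% of all genes were. In the glutathione list, the longest of the 7, 4 of 26 fell and 1 rose. *Gsta2* and *Gsta4*, glutathione transferases that act on lipid peroxidation products, fell by 0.87 (SE 0.17, adjusted p = 0.000817) and by 0.59 (SE 0.14, adjusted p = 0.00346) on the log2 scale, and *Gstt2* fell by 0.38 (SE 0.097, adjusted p = 0.00687). *Gstm6*, another transferase, rose by 0.98 (SE 0.16, adjusted p = 0.000256) on levels of 1.57 ± 0.501 CPM in male controls and 3.23 ± 1.08 in male mutants. *Me1*, malic enzyme, which supplies NADPH, fell by 0.47 (SE 0.074, adjusted p = 0.000168), the only call among 6 NADPH genes. The thioredoxin list had 1 call of 14, *Prdx4*, a peroxiredoxin of the endoplasmic reticulum, which rose by 0.34 (SE 0.074, adjusted p = 0.00208). The superoxide dismutases and catalase had 0 calls of 4, with a median of -0.18.

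Among the genes named here, the largest rises were in other lists, in *Akr1b8*, *Maff*, *Ncf4*, *Ncf1* and *Cybb*. In this comparison over both sexes 15.9% of all genes were called, 10.0% higher and 5.86% lower in mutants. No list was tested against these shares. *Akr1b8*, an aldo-keto reductase, was at 2.60 ± 0.621 CPM (SD, n = 5) in male controls and 9.47 ± 5.39 in male mutants, and at 2.72 ± 0.484 and 10.9 ± 5.40 in female controls and mutants, with a log2 fold change of 1.85 over both sexes (SE 0.25, adjusted p = 4.58e-05). *Ptgr1*, prostaglandin reductase, rose by 0.47 (SE 0.083, adjusted p = 0.000442) and *Ugdh*, which makes UDP-glucuronate, fell by 0.32 (SE 0.068, adjusted p = 0.00202), together 3 calls of 15 in the list of quinone, heme and iron genes. *Maff*, a small MAF partner of NRF2, was the only call among 10 regulators, with a rise of 1.67 (SE 0.24, adjusted p = 7.63e-05) from 3.78 ± 1.01 to 11.3 ± 4.58 CPM in males and from 3.35 ± 1.03 to 11.2 ± 5.08 in females. Of 7 oxidant-producing genes tested, 4 rose, with the subunits of the phagocyte NADPH oxidase *Ncf4* at 1.53 (SE 0.32, adjusted p = 0.0018), *Ncf1* at 1.45 (SE 0.20, adjusted p = 5.72e-05) and *Cybb* at 1.12 (SE 0.18, adjusted p = 0.000219). All 9 macrophage markers rose in the same comparison, with a median of 1.61, and their part in these 4 rises was not tested.

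**Figure D5:**
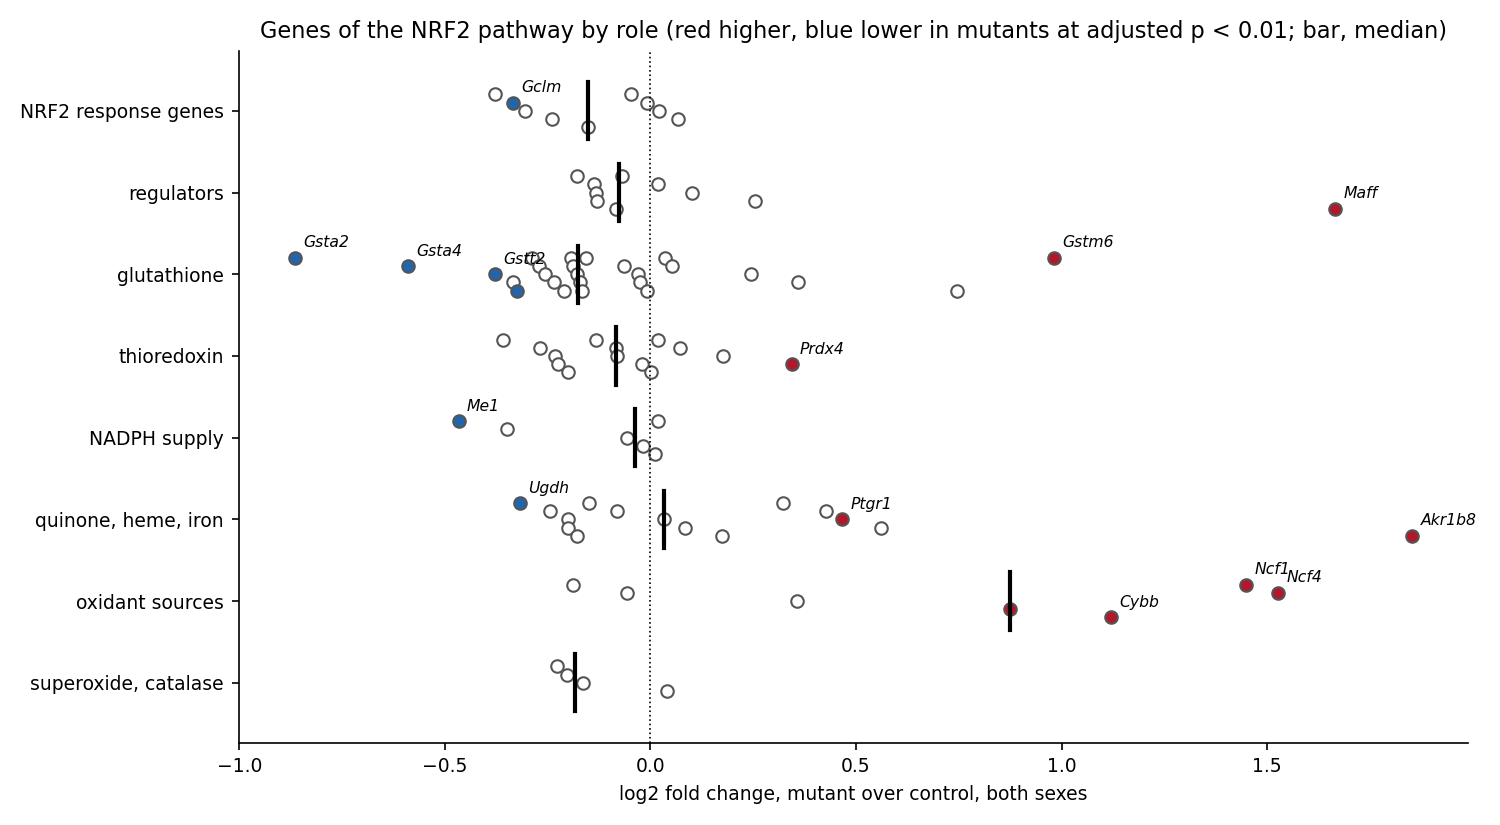
Log2 fold change of mutants over controls, both sexes together, for the 9 members tested and 82 other genes of the pathway by role, 1 point per gene, red or blue where a gene was higher or lower at an adjusted p under 0.01, with a bar for each median. The oxidant-producing genes had the highest median, 0.87, and the members a median of -0.15 with *Gclm* as the only call.

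Between the sexes, 16 of 81 pathway genes tested in controls were higher in males and 16 higher in females, where 8.75% and 9.02% of all genes were. In mutants 7 of 82 were higher in males and 9 in females, where 3.59% and 1.84% of all genes were. The difference of these shares from the background was not tested, and the lists were chosen with earlier results of these data known. Among the genes named above, *Me1* was higher in male controls by 1.21 on the log2 scale (adjusted p = 8.45e-08), *Ptgr1* by 0.94 (adjusted p = 0.000253), *Ugdh* by 0.38 (adjusted p = 0.00165) and *Gstt2* by 0.37 (adjusted p = 0.00463). *Gsta2* and *Gsta4* were lower in male than in female controls, at -1.80 (adjusted p = 8.51e-06) and -2.12 (adjusted p = 2.05e-06). In the glutathione list 5 genes were higher in males and 8 in females, with a median of -0.14 against -0.011 for all genes. In the NADPH list 3 of 6 were higher in males and none in females.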

How the data were processed

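RNA from whole kidneys of 20 mice was sequenced, 1 library per mouse. The deposited values are raw counts per gene for 24411 genes. Per the labels and the methods of the study, the authors trimmed reads with fastp 0.23.2, aligned them to mm10 with STAR 2.7.10b and worked in R 4.3.0 with DESeq2, with litter as a covariate. The counting tool, annotation and strand setting are not given in the sources used here. Counts of genes that overlap others on the opposite strand are therefore uncertain, and no UMIs were used. Groups, litters and weights were taken from the labels.

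Counts were filtered (filterByExpr), TMM-normalised and fitted with edgeR 4.0.16 (limma 3.58.1, R 4.3.3) by the quasi-likelihood test. Litter was a covariate within each sex or genotype, the fit over both sexes and the sex-by-genotype term used 6 groups of sex and litter, and the slope on KBW over 10 mutants had sex as a covariate. P-values were adjusted by Benjamini-Hochberg over all genes tested and calls made at an adjusted p under 0.01. CPM used effective library sizes, and correlations log2 CPM with a prior count of 2. Correlations over mice were tested by 100000 permutations, and by exact permutation within sex. Alternatives were DESeq2 1.42.0 (size factors and Wald test), other filters, thresholds and covariates, and leaving out each mouse. The code was tested on simulated counts.

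The 10 genes and all lists were chosen with earlier results of these data known. Among the other genes of the pathway, those named had the largest absolute log2 fold change among calls over both sexes with a mean of at least 1 CPM, up to 3 in each list and direction. For nearest patterns, the 3 genes with the highest Pearson's r were named. Gene positions are from the GENCODE vM21 annotation of GRCm38, the build that mm10 stands for, and promoters from RefSeq for GRCm38.p6.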

Additional observations from a re-analysis of the deposited data

Results flagged for a closer look

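For each of the 10 genes and 4 groups, the gap between the most extreme mouse and its nearest neighbour was divided by the range of the group of 5. It exceeded Dixon's critical value of 0.71 in 6 of 40 groups, and chance alone gives about 1 in 20. *Txnrd1* and *Srxn1* were highest among female mutants in FM4, with ratios of 0.869 and 0.805, at 235 and 99.1 CPM. FM4 was also the library with the fewest genes detected and the mutant with the lowest KBW, and the part of either in these levels was not tested. *Gclm* was lowest among female mutants in FM3, with a ratio of 0.783 at 136 CPM. That kidney had the lowest proximal tubule marker sum, and its part in this level was not tested. *Nfe2l2* was lowest among male controls in MC5, with a ratio of 0.859 at 91.0 CPM. *Keap1* was lowest among male mutants in MM4, with a ratio of 0.765 at 54.1 CPM. *Gclc* was highest among female controls in FC1, with a ratio of 0.75 at 541 CPM.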

How the results depend on the processing

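The number of members called varied with the settings, as did that over all genes. DESeq2's Wald test called 2001 genes against 1185 in males, 928 against 92 in females, 2973 against 2252 over both sexes, 3025 against 2510 between control sexes and 1959 against 782 between mutant sexes. Between mutant sexes, all 20 mice in 1 fit called 2353 of 14820. With no litter term 1375 were called in males, 2344 over both sexes, 3088 between control sexes and 921 between mutant sexes. Both settings tested 14010 genes in males, 14191 over both sexes, 14123 between control sexes and 14416 between mutant sexes. The share of all genes at an adjusted p under 0.05 is not given, so member counts at that threshold have no background. In males the number of members called was 2 in place of 1 at an adjusted p under 0.05, with DESeq2's Wald test or with no litter term. It was 0 to 1 when each mouse was left out, with 0 without MC4. In females it was 1 in place of 0 with DESeq2's Wald test. Over both sexes it was 3 in place of 1 at an adjusted p under 0.05, 4 with DESeq2's Wald test, 2 with DESeq2 size factors, no filter or no litter term, and 1 to 3 when each mouse was left out, with 2 without MC1, MC2 or MM1 and 3 without FM2. Between control sexes it was 1 to 3 when each mouse was left out, with 1 without MC4, and 4 with DESeq2's Wald test or no litter term, which added *Nfe2l2*. With all 20 mice in 1 fit it was 3, with *Nfe2l2* in place of *Txnrd1*. Between mutant sexes it was 3 in place of 1 at an adjusted p under 0.05 or with DESeq2's Wald test, 4 with all 20 mice in 1 fit, 0 with no litter term, and 0 to 1 when each mouse was left out, with *Nqo1* called only without FM2 and *Txnrd1* only without FM4. *Gclm* over both sexes kept its call without any of the 20 mice, at a log2 fold change of -0.37 to -0.31 and an adjusted p of 0.000401 to 0.00487. When each mouse was left out, 187 to 1863 of all genes were called in males and 1656 to 2994 over both sexes. Between control sexes these were 1223 to 2659, and between mutant sexes 246 to 1330.

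Several values changed sign. In females *Nfe2l2* was -0.0061 with no filter and -0.014 with all 20 mice in 1 fit, and *Txnrd1* was -0.0072 and -0.0058. Between control sexes *Gclc* was -0.0055 with at least 10 counts in every mouse and -0.022 with all 20 mice, and *Srxn1* was -0.0062 with all 20 mice. With no sex term, the slope on KBW was -0.037 for *Nfe2l2*, 0.45 for *Nqo1*, 0.28 for *Gclm*, 0.27 for *Txnrd1*, 0.027 for *Srxn1* and 0.34 for *Gsr*. When each mouse was left out, *Txnrd1* ranged from -0.025 to 0.078 in males, from -0.063 to 0.055 in females and from -0.019 to 0.039 over both sexes. *Nfe2l2* in females ranged from -0.035 to 0.095, *Keap1* over both sexes from -0.027 to 0.018 and *Gclc* between control sexes from -0.15 to 0.17. The sex-by-genotype term ranged from -0.17 to 0.041 for *Nqo1* and from -0.059 to 0.13 for *Txnrd1*. The slope on KBW ranged from -0.39 to 0.25 for *Gclc*, from -0.28 to 0.16 for *Txnrd1*, from -0.53 to 0.034 for *Srxn1* and from -0.093 to 0.11 for *Gsr*. The cause of these changes was not tested. No paired analysis was possible because the replicate numbers only name mice in order of deposit. Litter, which does tie mice across groups, was a covariate in the fits.

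The counts of *Slc7a11*, at most 25 per library, limit what can be said of it. Kidneys were bulk tissue, severity and sex overlap in the mutants, and 5 mice per group leave wide intervals.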

Other observations

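The balance of the subunits of glutamate-cysteine ligase was computed as the ratio of *Gclc* to *Gclm* counts in each mouse, a measure chosen after their values were seen. Its geometric mean was 1.22 in male controls (range 0.989 to 1.57) and 1.70 in female controls (range 1.40 to 2.24), and 1.30 in male mutants and 1.47 in female mutants. Counts are not scaled by gene length, so the ratio compares groups and not the subunits. The difference between control sexes had p = 0.0317 by an exact permutation test (two-sided, adjusted p = 0.127 over 4 comparisons), and did not pass the adjustment. Litter by litter, male controls had 0.989 to 1.57 against 2.24 in the female of litter A, 1.07 against 1.40 to 1.76 in litter B and 1.37 against 1.47 in litter C. Each male lay below each female of its litter, and permuting sex within litters gave p = 0.0312 (exact permutation test over 32 arrangements), the smallest that this layout allows. This p was not adjusted. The ratio holds the same *Gclm* counts that were called between control sexes, so it gives no separate support. The other 3 comparisons had exact permutation p of 0.151, 0.246 and 0.627.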
